A study of Mus musculus with 12 samples.

Results

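The genes described here are 32 antiviral genes that type I interferon induces, read in the pancreas of mice with acute pancreatitis. They were chosen by name from 46095 genes in the count table, without the OAS, GBP and IRG families, and all 32 passed the filter on low counts that 13743 genes passed. RNA was sequenced from 6 pancreas samples of Axl-/-Mertk-/- mice (AMKO 1 to 6), which are mutant in the receptor tyrosine kinases AXL and MERTK, and from 6 of C57BL/6J wild type mice (WT 1 to 6). All 12 samples came from mice at postnatal day 56 with pancreatitis. Caerulein had been injected into the peritoneum every hour, 10 times at 100 µg/kg, and the pancreas was taken 12 h after the first injection. Caerulein is a cholecystokinin analogue that overstimulates acinar cells. No untreated pancreas was analysed here. The sources used here do not give the strain background of the AMKO mice, so a difference of background cannot be told apart from the loss of the receptors.

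Cells that sense viral or misplaced nucleic acid release type I interferon, which binds the receptor IFNAR on the same and neighbouring cells. The kinases JAK1 and TYK2 then phosphorylate STAT2, which acts with IRF9 in the complex ISGF3. ISGF3 binds the interferon-stimulated response element, found in the promoters of many interferon-induced genes. The proteins of the genes studied here detect viral RNA, block viral replication or feed back on the pathway. In dendritic cells, AXL and MERTK are known to act with the interferon receptor to raise the inhibitors SOCS1 and SOCS3, so that these kinases restrain inflammation.

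RefSeq promoter sequences, from 250 bases before to 50 after the gene start on GRCm38.p6, were at hand for 25 of the 32 genes and for 27025 genes in all. Usp18, Mx1, Mx2, Dhx58, Rtp4, Parp9 and Parp14 had none. The core of the interferon-stimulated response element, GAAA, any 2 bases and GAAA on either strand, was found in 12 of the 25 genes (48%), against 3.99% of all genes and 3.44% of all promoters. Matches that overlapped were counted separately. A longer form, with a C after the second GAAA, was found in 11 of the 25 (44%) and in 0.944% of all genes. The gamma-activated site TTC, any 3 bases and GAA, searched after the first motif had been seen, was found in 5 of the 25 (20%) and in 9.55% of all genes. A match is a stretch of letters and does not show that a factor binds there. At an adjusted p under 0.05 in the test described below, 3.37% of all genes tested were lower in AMKO, with a median log2 fold change of -0.002. Of the 12 genes with the core motif 7 were lower, with a median of -1.07. Of the 13 without it 8 were lower, with a median of -1.05.

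These 6 promoters are shown, 5′ to 3′ along the gene, because their genes carry the 2 patterns described below. The groups did not overlap for Rsad2 and Stat2, and did for Isg15, Ifit1, Ifit3 and Ifit3b. Capitals mark the core motif, which reads TTTC, any 2 bases and TTTC where it lies on the other strand.

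Rsad2 (chr12:26456403-26456702, minus strand): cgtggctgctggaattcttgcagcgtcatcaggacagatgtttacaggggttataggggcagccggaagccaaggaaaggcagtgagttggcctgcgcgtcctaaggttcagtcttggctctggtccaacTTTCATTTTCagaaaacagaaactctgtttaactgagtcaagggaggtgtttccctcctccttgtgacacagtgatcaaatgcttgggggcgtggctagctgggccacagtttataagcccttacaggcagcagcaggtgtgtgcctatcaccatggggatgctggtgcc

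Stat2 (chr10:128270248-128270547, plus strand): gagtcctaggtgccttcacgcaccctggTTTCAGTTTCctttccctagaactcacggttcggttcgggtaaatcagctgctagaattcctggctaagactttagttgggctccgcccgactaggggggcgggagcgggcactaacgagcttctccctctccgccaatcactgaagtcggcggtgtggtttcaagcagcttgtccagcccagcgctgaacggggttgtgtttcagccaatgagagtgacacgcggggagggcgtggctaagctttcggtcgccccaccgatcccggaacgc

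Isg15 (chr4:156200769-156201068, minus strand): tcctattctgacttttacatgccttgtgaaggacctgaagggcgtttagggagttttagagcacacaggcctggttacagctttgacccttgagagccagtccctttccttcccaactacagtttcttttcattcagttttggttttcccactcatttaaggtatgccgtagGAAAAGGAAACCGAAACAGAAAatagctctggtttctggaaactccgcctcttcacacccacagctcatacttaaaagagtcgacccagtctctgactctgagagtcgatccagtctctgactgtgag

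Ifit1 (chr19:34640639-34640938, plus strand): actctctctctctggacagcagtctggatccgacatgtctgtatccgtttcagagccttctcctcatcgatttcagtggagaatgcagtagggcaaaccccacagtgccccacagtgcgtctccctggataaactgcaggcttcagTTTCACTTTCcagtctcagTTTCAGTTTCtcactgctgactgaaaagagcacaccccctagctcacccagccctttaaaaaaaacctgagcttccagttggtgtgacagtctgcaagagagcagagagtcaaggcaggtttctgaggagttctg

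Ifit3 (chr19:34583279-34583578, plus strand): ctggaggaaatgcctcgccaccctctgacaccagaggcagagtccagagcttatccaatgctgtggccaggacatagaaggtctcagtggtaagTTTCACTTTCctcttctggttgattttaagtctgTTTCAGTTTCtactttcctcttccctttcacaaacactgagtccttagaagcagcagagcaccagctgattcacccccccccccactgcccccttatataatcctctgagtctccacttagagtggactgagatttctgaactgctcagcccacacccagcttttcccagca

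Ifit3b (chr19:34607707-34608006, plus strand): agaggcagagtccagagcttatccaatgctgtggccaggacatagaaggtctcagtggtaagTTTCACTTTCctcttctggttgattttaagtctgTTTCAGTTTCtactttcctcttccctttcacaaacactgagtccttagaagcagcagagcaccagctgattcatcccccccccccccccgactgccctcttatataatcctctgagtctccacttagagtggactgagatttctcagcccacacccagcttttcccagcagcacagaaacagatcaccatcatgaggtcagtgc

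In Isg15 3 matches overlap in 1 run. Ifit1, Ifit3 and Ifit3b each hold 2 separate matches with the same letters, TTTCACTTTC and TTTCAGTTTC. In Rsad2 the match begins 120 bases before the gene start and in Stat2 222 bases before it. The promoters of Ifit3 and Ifit3b were identical at 258 of the 260 aligned positions where both have a base (99.2%), with their windows shifted against each other, and their transcripts shared 97.8% of 1700 aligned bases, so reads may have been assigned to either gene.

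The libraries held 10668637 to 15184371 counts. Axl levels lay between 5.6 and 11.5 CPM in AMKO and between 44.4 and 77.1 CPM in WT, and the fitted log2 fold change was -2.69 (SE 0.18, edgeR adjusted p = 1.95e-06). CPM are counts scaled to library size with TMM factors. Mertk did not pass the test (-0.03, SE 0.30, adjusted p = 0.968), and a count summed along the gene does not check a deletion of part of it. Both genotypes held 3 libraries with a female and 3 with a male pattern of sex-linked transcripts. Acinar markers, which define the labelled tissue, summed to between 167469 and 318833 CPM in AMKO and between 188227 and 286033 CPM in WT. The liver transcripts Alb, Apoa1 and Apob set WT 1, WT 2 and WT 3 apart. Alb had 2, 7 and 7 counts there and 141 to 309 in the other 9 libraries. Apoa1 and Apob had 0 there and at least 12 elsewhere. Ttr, the other liver marker, had 30, 153 and 94 counts there and 62 to 276 elsewhere, so it did not set WT 2 and WT 3 apart. Samples are not tied to individual mice by the labels, and p-values then measure the spread between samples. These are bulk samples, in which fewer cells of a type and less RNA per cell cannot be told apart.

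Antiviral genes were lower in AMKO pancreas. Of the 32 genes, 19 fell and 0 rose by edgeR's quasi-likelihood test at an adjusted p under 0.05, whereas 3.37% of the 13743 genes tested were lower and 2.41% were higher. At an unadjusted p under 0.05, 28 of the 32 were lower and 0 higher, with 11.3% of all genes lower. All 32 fitted log2 fold changes were below 0, from -2.41 for Rsad2 to -0.16 for Sp100. Their median was -1.11, and that of all genes tested was -0.002. With WT 4 to 6 as the only WT libraries 10 of the 32 genes were lower (0.717% of all genes), and with WT 1 to 3 only 8 were (1.09%). In 14 of the 32 genes every AMKO library lay below every WT library, as it did in 2.3% of all genes tested. In 0 of the 32 every AMKO library lay above every WT library, as it did in 1.24% of all genes.

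**Figure D1:**
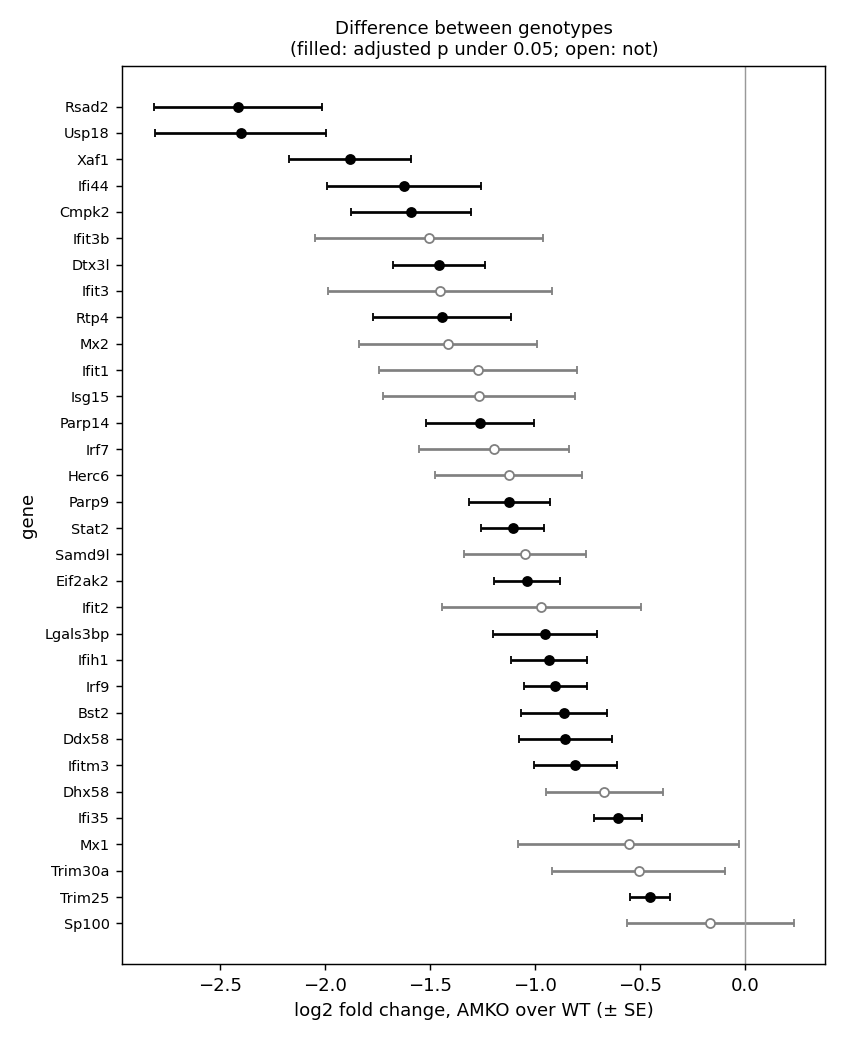
Log2 fold change, AMKO over WT, with its standard error, for each of the 32 antiviral genes (n = 6 libraries per genotype). All 32 points lie below 0, and filled points mark the 19 genes that passed the test.

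In each of the endothelial, duct and fibroblast lists 1 of 5 markers was lower in AMKO, with 3.37% of all genes tested lower. No tested marker of the other cell types was lower. A single call among 5 markers does not describe a cell type. Kdr, an endothelial receptor for VEGF, fell without overlap (log2 fold change -0.83, SE 0.15, adjusted p = 0.00752), the other 4 of 5 endothelial markers did not pass, and the 5 summed to 94.4 to 147 CPM in AMKO and 116 to 176 CPM in WT. Epcam, an epithelial adhesion gene, fell without overlap (-0.50, SE 0.09, adjusted p = 0.00851), alone among 5 duct markers that summed to 1089 to 1713 CPM in AMKO and 1312 to 1682 CPM in WT. Pdgfrb, a receptor of fibroblasts and pericytes, fell (-0.62, SE 0.16, adjusted p = 0.0330), alone among 5 fibroblast markers with a median log2 fold change of -0.45 and sums of 322 to 598 CPM in AMKO and 413 to 622 CPM in WT. The part of these cells in the levels of the antiviral genes was not tested.

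Of the 3 transcription factors of the pathway 2 fell. Below, levels are the lowest, median and highest CPM of a genotype, and a value in parentheses before its SE is the log2 fold change, AMKO over WT. Stat2, the interferon-specific STAT, stood at 31.4, 37.4 and 54.3 CPM in AMKO, against 69.3, 84.2 and 116 CPM in WT. The groups did not overlap, and the log2 fold change was -1.11 (SE 0.15, adjusted p = 0.00127), the smallest adjusted p of the 32 genes. Irf9, the DNA-binding partner of STAT2, stood at 21.1, 23.6 and 34.2 CPM in AMKO and 39.3, 46.6 and 67.2 CPM in WT, again without overlap (-0.90, SE 0.15, adjusted p = 0.00415). The exons of Irf9 overlap those of Rnf31 on the same strand by 123 bp. Irf7, which drives interferon-alpha genes in a feedback loop, stood at 11, 15.5 and 42.0 CPM in AMKO and 33.6, 52.3 and 88.5 CPM in WT. AMKO 1 and AMKO 5, at 42.0 and 41.5 CPM, lay above WT 2 and WT 6, and Irf7 did not pass the test (-1.19, SE 0.36, adjusted p = 0.0658). It passed without AMKO 1 (0.024) or AMKO 5 (0.0267).

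Among the genes of cytosolic RNA sensing, 3 of 4 fell. Ifih1, which encodes the long double-stranded RNA sensor MDA5, stood at 14.9, 18.7 and 30.2 CPM in AMKO and 31.2, 40.1 and 55.5 CPM in WT (-0.93, SE 0.18, adjusted p = 0.00915). The highest AMKO library was just below the lowest WT library. Ddx58, which encodes RIG-I, fell with overlap between the groups (-0.85, SE 0.22, adjusted p = 0.0376). Trim25, a ubiquitin ligase of the RIG-I pathway, changed little and evenly, with 80.4, 93.4 and 106 CPM in AMKO and 111, 123 and 161 CPM in WT (-0.45, SE 0.09, adjusted p = 0.0141). No AMKO library reached the lowest WT library. Dhx58, which encodes LGP2, did not pass (-0.67, SE 0.28, adjusted p = 0.177).

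Rsad2 and Usp18 had the lowest log2 fold changes. Rsad2 encodes viperin, a radical SAM enzyme that makes a chain-terminating nucleotide. It stood at 25.1, 34.9 and 52.3 CPM in AMKO and 73.4, 143 and 425 CPM in WT (-2.41, SE 0.40, adjusted p = 0.00401). The highest AMKO library was 2.08 times the lowest, and the highest WT library was 5.78 times the lowest. Cmpk2, a mitochondrial nucleotide kinase gene that lies next to Rsad2 on chromosome 12 with 12752 bp between them, fell as well (-1.59, SE 0.29, adjusted p = 0.00634). Usp18 removes ISG15 from proteins and blocks signalling at IFNAR2. It stood at 2.06, 4.75 and 10.3 CPM in AMKO and 15.4, 26.5 and 64.2 CPM in WT, without overlap (-2.40, SE 0.41, adjusted p = 0.00446).

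Other members of the ISG15 system did not pass the test. Isg15, the ubiquitin-like protein itself, stood at 4.22, 6.63 and 20.2 CPM in AMKO and 7.31, 19.4 and 43.0 CPM in WT (-1.27, SE 0.46, adjusted p = 0.117). AMKO 1 and AMKO 5, at 20.2 and 13.6 CPM, lay above 3 and 2 of the WT libraries. Isg15 shared 95.2% of 482 aligned bases with a second annotated transcript, so its counts are uncertain. Herc6, the ISG15 ligase of mice, did not pass either (-1.12, SE 0.35, adjusted p = 0.0748), and the exons of another transcript cover 13.7% of its own.

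The 3 genes of ADP-ribosylation fell, and none overlapped between the genotypes. Parp9 and Dtx3l encode partners in 1 complex and lie head to head on chromosome 16, where their exons overlap by 458 bp on opposite strands, so their counts are not fully separate. Dtx3l fell (-1.46, SE 0.22, adjusted p = 0.00216), as did Parp9 (-1.12, SE 0.19, adjusted p = 0.00488). Parp14, at 54967 bp from Dtx3l, stood at 34.5, 43.0 and 87.7 CPM in AMKO and 107, 117 and 217 CPM in WT (-1.26, SE 0.26, adjusted p = 0.0117).

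All 5 genes of the enzymes and membrane factors that act on viruses directly fell, Rsad2 and Cmpk2 among them. Eif2ak2, which encodes the RNA-activated kinase PKR, stood at 27.4, 38.8 and 51.8 CPM in AMKO and 69.8, 78.6 and 117 CPM in WT (-1.04, SE 0.16, adjusted p = 0.00217). Bst2, which encodes the virion tether tetherin, stood at 22.3, 27.9 and 45.8 CPM in AMKO and 32.1, 51.6 and 75.7 CPM in WT (-0.86, SE 0.20, adjusted p = 0.0253). Among AMKO libraries AMKO 5 alone lay above a WT library, WT 2. Ifitm3, which blocks entry of enveloped viruses, had the most counts and also the highest level per kilobase of exon, 190 CPM per kb in AMKO and 332 in WT, and Mx2 had the lowest, 0.54 and 1.48. Ifitm3 stood at 87.3, 113 and 194 CPM in AMKO and 170, 212 and 320 CPM in WT (-0.81, SE 0.20, adjusted p = 0.0278). AMKO 5 at 194 CPM lay above 2 WT libraries, and the others lay below all 6.

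None of the 6 genes of the IFIT cluster and the Mx pair passed the test, although their median log2 fold change of -1.34 was below that of every other group by role. IFIT proteins bind foreign RNA ends, and their genes lie together on chromosome 19. Ifit1 stood at 4.98, 7.0 and 23.5 CPM in AMKO and 9.17, 22.5 and 50.6 CPM in WT (-1.27, SE 0.47, adjusted p = 0.13). AMKO 1 and AMKO 5 each lay above 3 WT libraries. Ifit3b, Ifit3 and Ifit2 had log2 fold changes of -1.50, -1.45 and -0.97 with adjusted p of 0.117, 0.123 and 0.249. Mx1 and Mx2 encode dynamin-like GTPases, and C57BL/6 mice are known to carry a defective Mx1 allele. Neither Mx2 (-1.41, SE 0.43, adjusted p = 0.0659) nor Mx1 passed (-0.55, SE 0.53, adjusted p = 0.579). The pair shared 95.3% of 843 aligned bases.

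Of the 8 further induced genes 5 fell. Xaf1, a binding partner of the apoptosis inhibitor XIAP, stood at 5.36, 6.46 and 16.1 CPM in AMKO and 21.0, 32.5 and 47.1 CPM in WT, without overlap (-1.88, SE 0.29, adjusted p = 0.00251). Ifi44 stood at 1.78, 2.78 and 7.77 CPM in AMKO and 8.01, 9.71 and 23.6 CPM in WT (-1.62, SE 0.37, adjusted p = 0.0202), and its highest AMKO library was just under its lowest WT library. Ifi35 (-0.60, SE 0.11), Rtp4 (-1.44, SE 0.33) and Lgals3bp (-0.95, SE 0.25) fell as well, with adjusted p of 0.00851, 0.0207 and 0.0375. The exons of another transcript cover 16.8% of those of Ifi35, on the opposite strand. For Rtp4 they cover 13.9%, on the same strand. Samd9l, which restricts viral translation, lay at the threshold (-1.05, SE 0.29, adjusted p = 0.0504). Sp100, a component of nuclear bodies, stood at 11.7, 19.0 and 57.0 CPM in AMKO and 15.4, 32.9 and 46.5 CPM in WT (-0.16, SE 0.40, adjusted p = 0.846). AMKO 1 held the highest Sp100 level of all 12 libraries. Trim30a, a TRIM protein gene of mice, did not pass either (-0.51, SE 0.41, adjusted p = 0.51). It stood at 15.4, 21.6 and 56.6 CPM in AMKO and 16.5, 55.7 and 61.8 CPM in WT. For Trim30a AMKO 1 lay above 3 WT libraries and not above all of them. Trim30a, with 4111 bp of exon, shared 97.7% of 301 aligned bases with Trim30d. Sp100, with 7556 bp of exon, shared at least 98.3% of 332 to 399 aligned bases with other annotated transcripts. Reads from these short stretches may have been assigned to either gene.

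**Figure D2:**
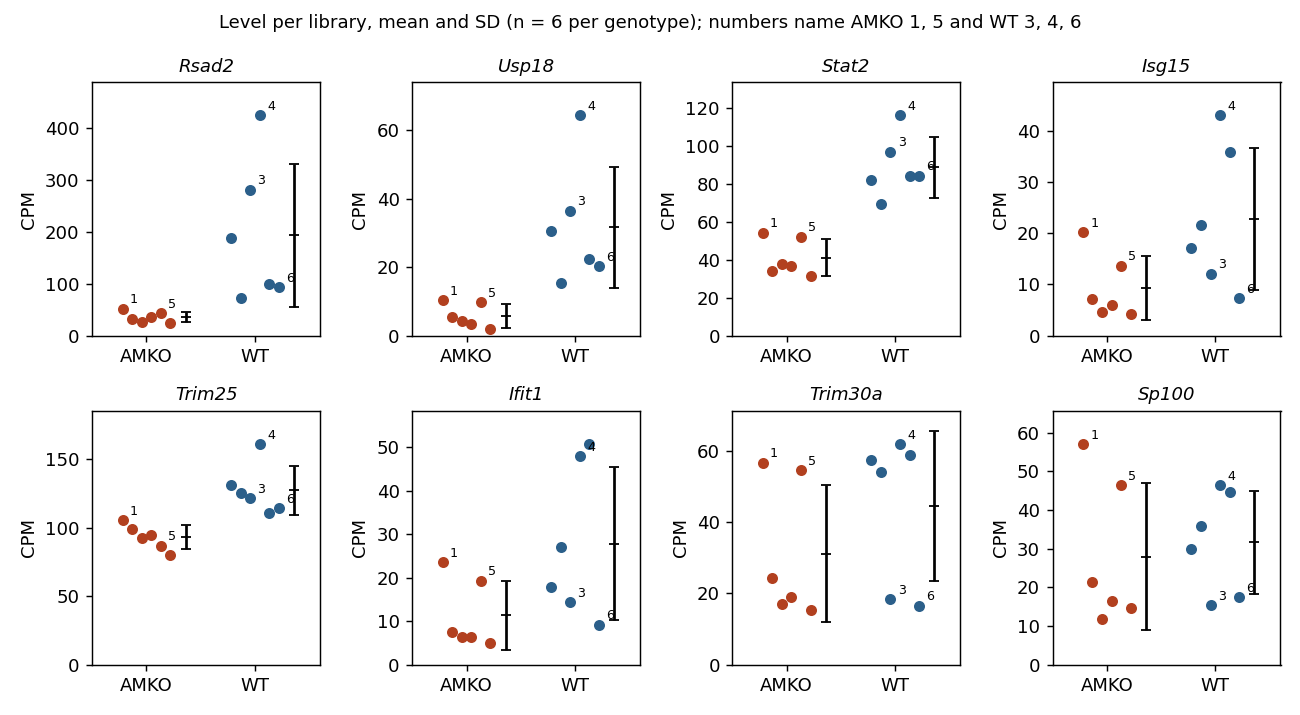
CPM per library for 8 of the antiviral genes, AMKO left of WT, with the mean and SD (n = 6 per genotype). AMKO lies below WT without overlap for Rsad2, Usp18, Stat2 and Trim25, whereas AMKO 1 and AMKO 5 lie above some WT libraries for Isg15, Ifit1 and Trim30a, and AMKO 1 lies above all 6 for Sp100.

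Of the 19 calls, 13 held in each of the 12 fits that left out 1 library. Ifi44 was lost without AMKO 2 or AMKO 3 (adjusted p up to 0.0544) and Rtp4 without AMKO 2 or WT 4 (up to 0.0556). Ddx58, Bst2, Ifitm3 and Lgals3bp were each lost without AMKO 2, 3, 4 or 6, without WT 4, and without 1 to 4 further WT libraries, with adjusted p up to 0.0911. Without AMKO 1, 29 genes were called lower (3.98% of all genes), all but Mx1, Trim30a and Sp100.

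The AMKO libraries were not alike. AMKO 1 and AMKO 5 were the 2 highest AMKO libraries in 30 of the 32 genes, all but Ifi35 and Trim25. AMKO 2, 3, 4 and 6 all lay below every WT library in 30 genes, all but Trim30a and Sp100. Setting aside the 2 highest AMKO libraries makes such a separation easier, and its share over all genes was not counted. The mean of the 32 log2 CPM values, each centred on the 12 libraries, was 0.27 in AMKO 1, 0.11 in AMKO 5 and between -1.17 and -0.83 in the other 4. In WT it was between 0.11 and 1.35. On that mean AMKO 1 lay above WT 6 and below the other 5, and AMKO 5 lay level with WT 6. Gene by gene, AMKO 1 was still below every WT library in 18 of the 32 genes and AMKO 5 in 14. A position inside the WT range thus held for part of the genes. For these 2 counts, too, the share over all genes was not taken, nor for the 30 genes with AMKO 1 and AMKO 5 the 2 highest AMKO libraries.

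**Figure D3:**
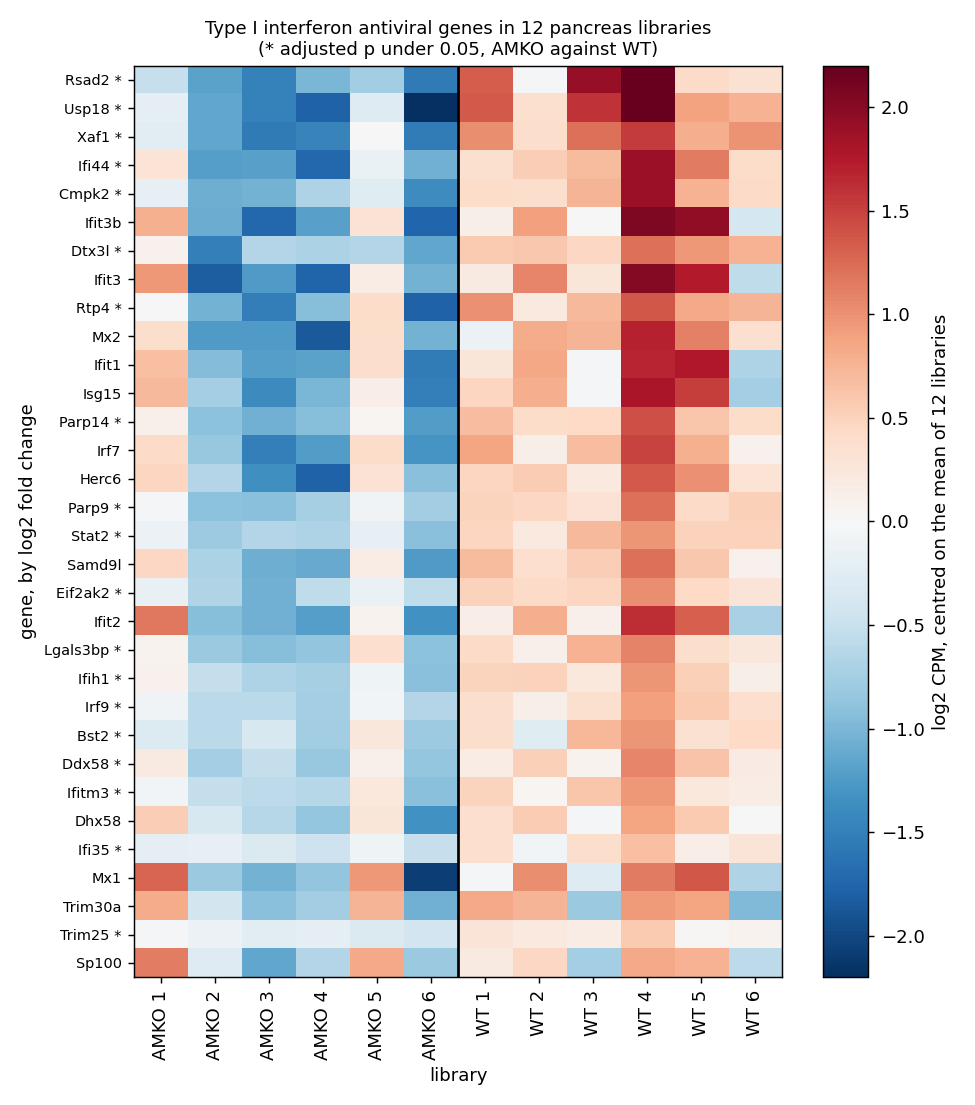
Log2 CPM of the 32 antiviral genes in 12 libraries, centred on each gene's mean over the libraries. AMKO 2, 3, 4 and 6 are low throughout, AMKO 1 and AMKO 5 are intermediate, and WT 4 is the highest WT library in 30 of 32 genes.

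Wild type libraries differed as well, in orders whose share over all genes was not counted. WT 4 was the highest WT library in 30 of the 32 genes, and its mean centred log2 CPM of 1.35 was followed by 0.81 in WT 5. Which WT library was lowest depended on the gene. WT 2 was lowest in 12 genes and WT 6 in 11. WT 3 was among the 2 highest WT libraries in 8 genes (Rsad2, Usp18, Xaf1, Stat2, Bst2, Ifi35, Ifitm3 and Lgals3bp), and WT 3 and WT 6 were the 2 lowest in 10 (Ifit1, Ifit2, Ifit3b, Isg15, Mx1, Ifih1, Dhx58, Herc6, Trim30a and Sp100).

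The libraries also differed in leukocyte markers. A score was taken as the mean centred log2 CPM of neutrophil, macrophage, monocyte, conventional dendritic, B and plasma, and T and NK cell markers, none of them one of the 32 genes. The score was 1.55 in AMKO 1 and 1.19 in AMKO 5, and between -1.06 and -0.22 in the other AMKO libraries. In WT it was -1.31 in WT 3 and -0.55 in WT 6, and between 0.36 and 0.66 in the other 4. B and plasma cell markers summed to 208 CPM in AMKO 1, 81.4 CPM in AMKO 5 and 2.12 to 4.61 CPM in the other AMKO libraries, against 0.90 to 45.9 CPM in WT. T and NK cell markers summed to 14.6 and 6.82 CPM in AMKO 1 and AMKO 5, 0.22 to 1.91 CPM in the other AMKO libraries and 0.57 to 2.71 CPM in WT, with Trbc2 at 0 counts throughout. Markers of lymph node stroma and follicle reached 20.7 CPM in AMKO 1 and 4.33 CPM in AMKO 5. They reached at most 1.03 CPM in the other AMKO libraries and 1.12 CPM in WT, with Ccl21a and Ltb at 0 counts throughout. Nearly all of it was Cr2 and Fcer2a, at 13.4 and 7.09 CPM in AMKO 1 and 2.49 and 1.54 CPM in AMKO 5. Ccl19 had 0 counts in both, and Madcam1 was at 0.25 and 0.29 CPM there and 0.07 to 0.28 CPM in WT. These sums therefore do not show lymph node stroma. Macrophage markers summed to 568 and 650 CPM in AMKO 1 and AMKO 5, 249 to 313 CPM in the other AMKO libraries and 151 to 349 CPM in WT, and 1 of the 8 markers passed the test, upwards. The other lists in the score did not set both AMKO 1 and AMKO 5 well above WT. Neutrophil markers summed to 254 CPM in AMKO 1, 399 CPM in AMKO 5 and 52.9 to 264 CPM in the other AMKO libraries, against 67.4 to 650 CPM in WT. Monocyte markers summed to 312 and 316 CPM in AMKO 1 and AMKO 5, 127 to 273 CPM in the other AMKO libraries and 127 to 312 CPM in WT. Conventional dendritic cell markers summed to 48.7 CPM in AMKO 1, the highest, and 32.3 CPM in AMKO 5, the lowest AMKO library, with 26.7 to 38.7 CPM in WT. Zbtb46 made up most of each sum, and it was lowest among AMKO libraries in AMKO 5 at 22.4 CPM. Itgax was higher in AMKO 1 (12.7 CPM) and AMKO 5 (6.16 CPM) than in the other AMKO libraries, with 1.79 to 8.80 CPM in WT. Flt3, Xcr1 and Clec9a, at low levels, were also highest among AMKO libraries in AMKO 1 and AMKO 5, and Cd209a was not. The part of these cells in the results was not tested beyond the fit below.

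Markers of plasmacytoid dendritic cells, which release large amounts of type I interferon, summed to a lowest, median and highest level of 5.18, 7.34 and 22.9 CPM in AMKO and 3.64, 4.72 and 7.47 CPM in WT. Most of that was Ly6d, which B cells also express. Siglech, the defining marker, had 0 to 34 counts per library, and of the 5 markers Ly6d alone had enough counts to be tested and did not pass (1.28, SE 0.37, adjusted p = 0.0599). The part of these cells in the levels of the antiviral genes was not tested.

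With genotype and the leukocyte score in 1 edgeR fit, chosen after the levels had been seen, the slope on the score passed the test upwards in 18 of the 32 genes, with 9.92% of all genes passing upwards. No slope of the 32 passed downwards, with 2.83% of all genes doing so. Slopes are in log2 units per unit of score. The slope was 1.0 (SE 0.14, adjusted p = 0.000172) for Mx1, 0.85 (SE 0.08, adjusted p = 5.31e-06) for Trim30a and 0.81 (SE 0.08, adjusted p = 4.60e-06) for Sp100. It was 0.14 (SE 0.20, adjusted p = 0.713) for Rsad2, 0.15 (SE 0.07, adjusted p = 0.189) for Stat2 and 0.07 (SE 0.05, adjusted p = 0.456) for Trim25. Of the 13 genes that had not passed the test of genotype, 12 had a slope that passed, with Mx2 the exception (adjusted p = 0.0584). Of the 19 that had fallen 6 did. These counts are tied to the way the genes were sorted, since AMKO 1 and AMKO 5 hold the highest scores. A gene that is high in AMKO 1 and AMKO 5 tends both to miss the test of genotype and to have a positive slope. No conclusion is drawn from the contrast.

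With the score in the fit, 31 of the 32 genes were lower in AMKO (6.32% of all genes), the exception being Sp100 (-0.30, SE 0.14, adjusted p = 0.165). Fold changes moved little for some genes that had already fallen, as in Stat2 (-1.13, SE 0.13, adjusted p = 0.000162), and more for others. Rtp4 went from -1.44 (SE 0.33) to -1.60 (SE 0.22, adjusted p = 0.000501). Ifit1 (-1.41, SE 0.28, adjusted p = 0.00502) and Isg15 (-1.39, SE 0.27, adjusted p = 0.0045) were called lower in this fit and not without the score. Without the score both stood at -1.27, with a larger SE of 0.47 and 0.46. Within each genotype the score falls into separate clusters of libraries, so a slope mainly joins these clusters. It passed in 11 genes without AMKO 1 (6.51% of all genes) and in 28 with total-count scaling (20.6% of all genes).

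**Figure D4:**
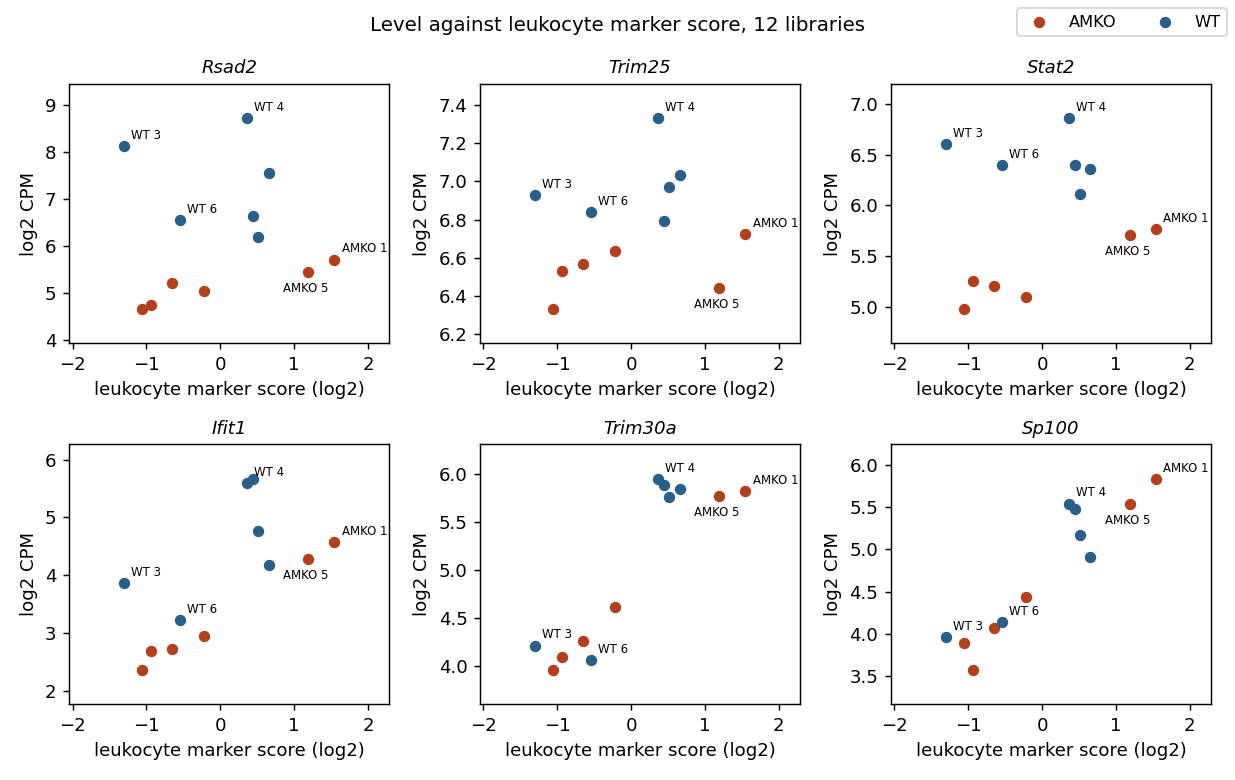
Log2 CPM of 6 antiviral genes against the leukocyte marker score in 12 libraries. Sp100 and Trim30a are higher in libraries with a higher score in both genotypes, whereas every AMKO library lies below every WT library for Rsad2, Stat2 and Trim25, including AMKO 1 (score 1.55) and AMKO 5 (score 1.19).

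Genes upstream of the antiviral genes did not follow them as a group. Of 21 interferon genes none had enough counts to be tested, and 19, Ifnb1 and the interferon-alpha genes among them, had 0 counts in all 12 libraries, which allows up to 3 counts per library or 0.198 to 0.281 CPM. Few counts here do not show that a gene was silent, since the interferon-induced Psmb8, Psmb9 and Tap1 had 12, 20 and 60 counts over 12 libraries. Of 10 genes of the receptors and their signalling none passed in either direction, with 2 lower at an unadjusted p under 0.05 and a median log2 fold change of -0.08. The receptor chains gave -0.16 for Ifnar1 (SE 0.10, adjusted p = 0.372) and 0.06 for Ifnar2 (SE 0.16, adjusted p = 0.854).

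Of 16 genes of nucleic acid sensing and interferon induction 1 was lower and 0 were higher, with a median log2 fold change of -0.03. Of all genes tested 3.37% were lower, so 1 call in so short a list says little about the list. It was Tlr3, the endosomal receptor of double-stranded RNA, with 11.3, 16.4 and 18.8 CPM in AMKO and 23.9, 26.9 and 35.8 CPM in WT, without overlap (-0.89, SE 0.14, adjusted p = 0.00291). Of 8 genes that restrain interferon signalling or clear endogenous nucleic acid 1 was lower, again a single call in a short list. It was Adar, which edits double-stranded RNA and has an interferon-induced isoform (-0.48, SE 0.08, adjusted p = 0.00447). Socs1 and Socs3 did not pass (0.23 and -0.18, SE 0.42 and 0.13, adjusted p = 0.795 and 0.43).

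Other interferon-induced genes were lower in 8 of 38 tested cases (3.37% of all genes) and higher in 0. Their median log2 fold change was -0.41, with 35 fitted values below 0. Slfn9, a Schlafen family gene of mice, stood at 15, 18.6 and 25.2 CPM in AMKO and 35.6, 63.0 and 85.6 CPM in WT, without overlap (-1.68, SE 0.18, adjusted p = 0.000219). Trim12c (-1.12, SE 0.19), Lgals9 (-1.09, SE 0.19) and Trim21, a cytosolic antibody receptor (-0.86, SE 0.15), fell as well, with adjusted p of 0.00454, 0.00488 and 0.00509.

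**Figure D5:**
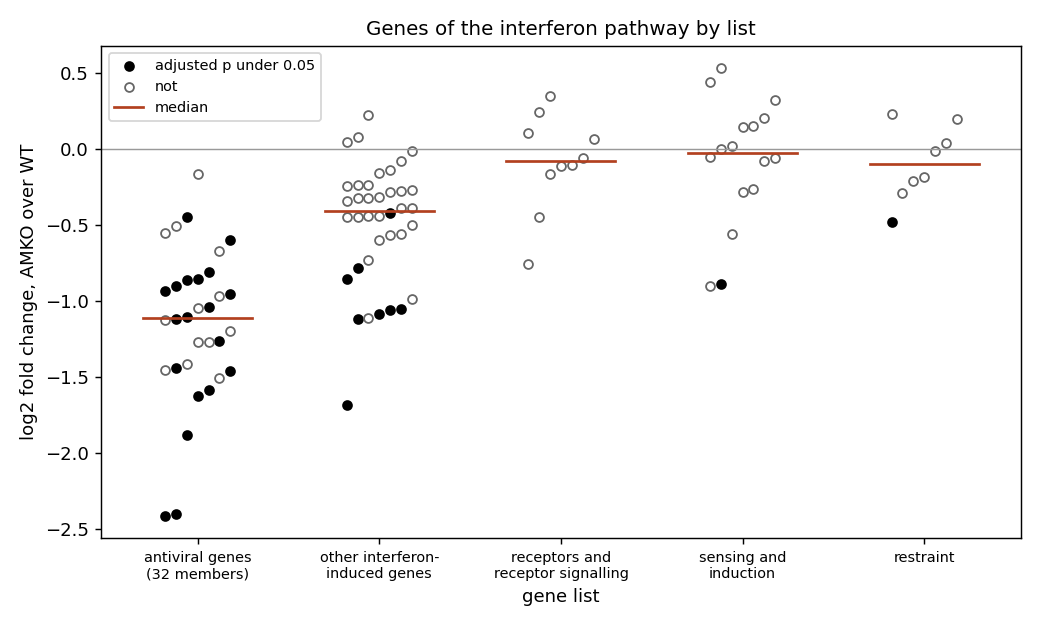
Log2 fold change, AMKO over WT, of the tested genes in 5 lists of the interferon pathway, with each list's median as a line. The 32 antiviral genes have a median of -1.11 and the other interferon-induced genes -0.41, whereas the lists of receptors, sensing and restraint have medians of -0.08, -0.03 and -0.10.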

How the data were processed

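RNA from 12 pancreas samples was sequenced and, per the submitters' processing notes, aligned with HISAT2 2.0.4 to mm10. The authors deposited whole-number counts, not normalized, for 46095 genes. The sources used here do not give the counter, annotation, use of strand or handling of multiple matches. Genotypes come from the titles, with AMKO read as the double mutant that the series' design names. After filterByExpr and TMM scaling, edgeR 4.0.16 under R 4.3.3 tested AMKO against WT with its quasi-likelihood F test. Genotype was the single term, p-values were adjusted by Benjamini-Hochberg over 13743 genes, and calls were made at an adjusted p under 0.05. Log2 CPM used a prior count of 2. Alternatives were other scalings, filters, DESeq2 1.42.0, limma 3.58.1 voom, covariates, subsets of WT libraries and fits without 1 library. Replicates within a genotype differed by 9.93 to 73.3 chi-square units per degree of freedom, so none was a repeat deposit.

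The 32 genes and all lists were chosen with earlier results of these data known. All 32 are reported. Values by library were given for the extremes of fold change, the transcription factors, Isg15, Usp18, Bst2 and the gene with the highest mean CPM. Values by library of other genes were added after they had been seen. In other lists up to 4 called genes were named by p, with Ifnar1, Ifnar2, Axl and Mertk whatever their result. The values of 1 further gene are not reported here. The interferon, Socs1 and Socs3, Psmb8, Psmb9 and Tap1 values were added after they had been seen. Promoters are RefSeq sequences of GRCm38.p6. Overlaps come from GENCODE M21, and near-identical stretches from BLAST 2.17.0 at 95% identity over at least 300 bp.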

Additional observations from a re-analysis of the deposited data

Results flagged for a closer look

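In a search of 64 groups of 6 libraries (32 genes in 2 genotypes) for a library far from the rest of its genotype, 4 were found, and chance gives about 1 in 20 groups. All 4 were WT 4 lying high. Parp9 was at 81.4 CPM in WT 4, with the next WT library at 50.6 CPM. Parp14 was at 217 CPM, with the next at 130 CPM. Cmpk2 was at 86.9 CPM, with the next at 39.4 CPM. Eif2ak2 was at 117 CPM, with the next at 81.0 CPM. Without WT 4, 14 of the 32 genes were called lower in AMKO (2.14% of all genes lower), these 4 among them.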

How the results depend on the processing

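The number of antiviral genes called lower in AMKO, 19, was 15 to 24 with RLE, upper-quartile and total-count scaling, both other count filters, DESeq2, the replicate block or sex as a term, and 26 with limma voom. It was 31 with the leukocyte score, 30 with the lymphoid score, 10 against WT 4 to 6 only and 8 against WT 1 to 3 only. Fits without 1 library gave 13 to 29. None was called higher in any of these fits. Over all genes, the 794 calls became 456 with total-count scaling, 1267 with DESeq2, 1664 with limma voom, 1566 and 1504 with the leukocyte and lymphoid scores, and 167 and 231 against WT 4 to 6 and WT 1 to 3 only. Fits without 1 library gave 411 to 1140. Sp100 changed sign against WT 1 to 3 only (log2 fold change 0.0536, adjusted p = 0.976). The subsets of WT libraries, split because WT 1 to 3 stand apart in Alb, Apoa1 and Apob, hold fewer samples. The cause of the other shifts was not tested. The number of genes with a positive slope on the leukocyte score, 18, was 28 with total-count scaling and 11 to 22 in fits without 1 library. The longer motif gave 11 genes in place of 12. Samples with the same replicate number did not all deviate together (correlations of -0.16 to 0.35, and not every library matched its own number best). With the replicate block 24 antiviral genes and 910 genes in all were called.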
